A study of Rattus norvegicus with 399 samples.

Results

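The hearts of female rats exposed to either of 2 dichlorobenzenes were compared at high concentrations. Both are benzenes that carry a pair of chlorines, which sit on neighbouring carbons in 1,2-dichlorobenzene (1,2-DCB) and opposite each other in 1,4-dichlorobenzene (1,4-DCB). The comparison is the change with 500 ppm 1,2-DCB against its 0 ppm controls, minus the change with 400 ppm 1,4-DCB against its own 0 ppm controls. It used 28 of the 399 libraries of the series, each from the heart of 1 rat. They were chosen by labelled tissue, compound and concentration, without libraries marked for quality by the submitters and without the 1,4-DCB controls F1 and F7. There were 5 rats at 500 ppm 1,2-DCB (F601 to F605), 10 rats at 0 ppm for 1,2-DCB, 5 rats at 400 ppm 1,4-DCB (F501 to F505) and 8 rats at 0 ppm for 1,4-DCB. All were Sprague-Dawley rats aged 9 weeks, and tissues were taken on study day 5. Route, daily hours of exposure and hour of collection were not given in the sources used here. The 500 and 400 ppm concentrations are not matched, so each compound is also described at a concentration on the other side. Each control set belongs to 1 compound, and control numbers that recur in both sets name different rats.

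RNA was measured with the TempO-Seq S1500+ rat panel, in which pairs of detector oligonucleotides are ligated on chosen transcripts and the products are counted. Of the 2654 probes on the panel, 2032 passed the filter on low counts and were tested. The 28 libraries held 8546408 to 17623348 counts, and Myl2, the ventricular myosin light chain, took 29.1 to 36.2% of them. A level here is a CPM value, the counts of a probe scaled to the library total, and differences are on the log2 scale with their standard error (SE). Myl3, another ventricular myosin light chain, had medians of 1599, 1713, 1659 and 1640.3 CPM in 1,2-DCB controls, 500 ppm, 1,4-DCB controls and 400 ppm, so heart muscle RNA was abundant in every group. Cdh1, the 1 lung epithelial marker on the panel, did not exceed 0.681 CPM in any library.

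Several systems described here are well known from other tissues. Electrophiles and oxidants free the transcription factor NRF2, which raises genes for glutathione synthesis, thioredoxin reduction and haem breakdown. Metallothioneins bind zinc and other metals and also respond to glucocorticoids. In the heart, fibrillar collagens come mainly from fibroblasts. They are folded in the endoplasmic reticulum (ER) with the help of chaperones, and the matrix is cross-linked outside the cell by lysyl oxidases. Arntl and Npas2 encode activators of the circadian clock, and Arntl levels swing with the time of day.

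The compounds differed at 110 of the 2032 probes, or 5.41% (edgeR quasi-likelihood test, Benjamini-Hochberg adjusted p below 0.05, called from here on). Relative to 1,4-DCB, 1,2-DCB shifted 53 of these upward and 57 downward, and 41 differed by more than 2-fold. Among the named genes, the largest upward differences were in metallothioneins, the slow myosin Myh7, the acute phase gene Orm1 and Cyp2e1. The largest downward ones were in Arntl, Col5a3, Col3a1, the interferon-induced Mx1, Pno1 and Npas2. Against their own controls, the 500 ppm hearts had 359 called probes (17.7%), 162 higher (7.97%) and 197 lower (9.69%). Of these calls 45.1% were higher, and with upper quartile scaling 34.8%. The 400 ppm 1,4-DCB hearts had 0 called probes (0%) by edgeR, with 6.20% of probes at an unadjusted p below 0.05, and 2 called by DESeq2. The approximate 95% interval of the 1,4-DCB change excluded a doubling and a halving at 1658 of the 2032 probes. For the difference between compounds it did so at 1359.

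**Figure D1:**
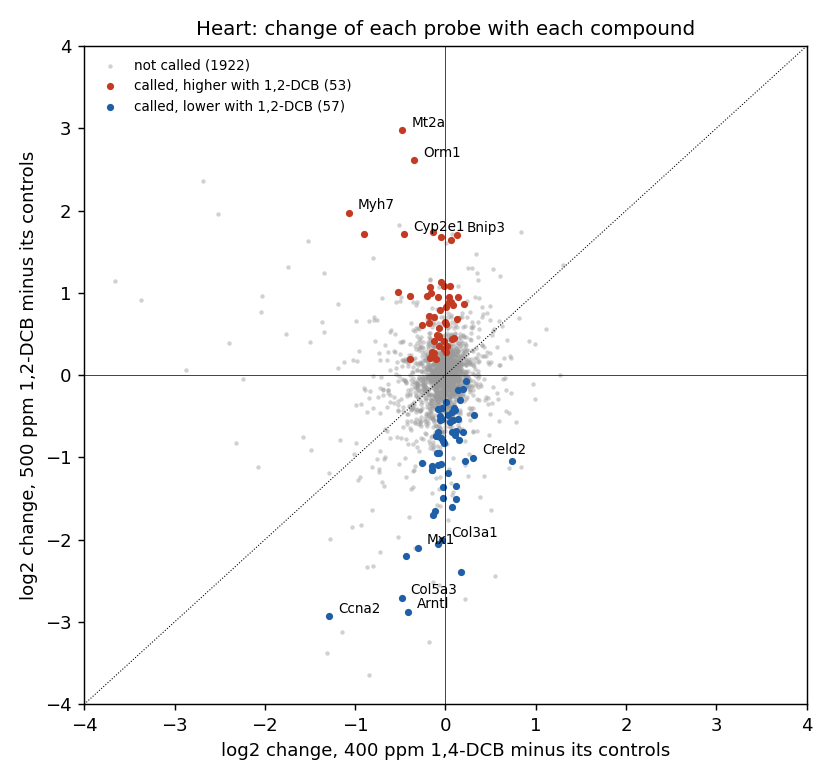
Each point is a probe, with its log2 change at 400 ppm 1,4-DCB on the x axis and at 500 ppm 1,2-DCB on the y axis, each against its own controls, and the dotted line marks equal change. Coloured points are the 53 probes called higher and the 57 called lower with 1,2-DCB, and the axes end at 4, which leaves out 4 probes.

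Some control libraries stood apart, and their values come before the results that rest on them. The left-out 1,4-DCB controls F1 and F7 held 945 and 792 CPM of Alb, the albumin transcript of hepatocytes. Among the 8 controls that were kept, Alb ran from 3.64 to 274 CPM (median 33.9), with 61.6 CPM or more in F2, F4, F8 and F10. It ran from 0.802 to 79.5 CPM in 1,2-DCB controls, from 5.30 to 44.4 CPM at 500 ppm and from 8.23 to 52.7 CPM at 400 ppm. Of 12 hepatocyte markers on the panel 10 were tested, and their median difference between the compounds was 1.96. This median was 3.13 with F1 and F7 kept, -0.35 without F2, F4, F8 and F10 and -0.010 with the Alb level as a covariate. Their summed level was 1598 to 1831 CPM in 1,2-DCB controls, 1712 to 2229 at 500 ppm, 1474 to 2949.9 in 1,4-DCB controls and 1670.2 to 2254 at 400 ppm. The members Tf and Ttr made up most of this sum, with medians of 976 and 577 CPM in 1,2-DCB controls beside 1704 CPM in all. The sum therefore says little about scarcer members such as Alb. Fgb, a fibrinogen chain of hepatocytes, was at 0 in every library of the other 3 groups and reached 0.589 CPM in 1,4-DCB controls. With F1 and F7 kept, 140 probes were called in the compound difference and 53 between the control sets. Without F2, F4, F8 and F10 as well as F1 and F7, the first count was 63 and the second 1. With the Alb level as a covariate, 5.02% of probes were called in the first and 1 probe in the second. As fitted, the 2 control sets differed at 9 probes (0.443%), 2 higher and 7 lower with 1,2-DCB controls, with 310 at an unadjusted p below 0.05 and 50 called by DESeq2. With DESeq2 size factors that split was 0 and 6.

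**Figure D2:**
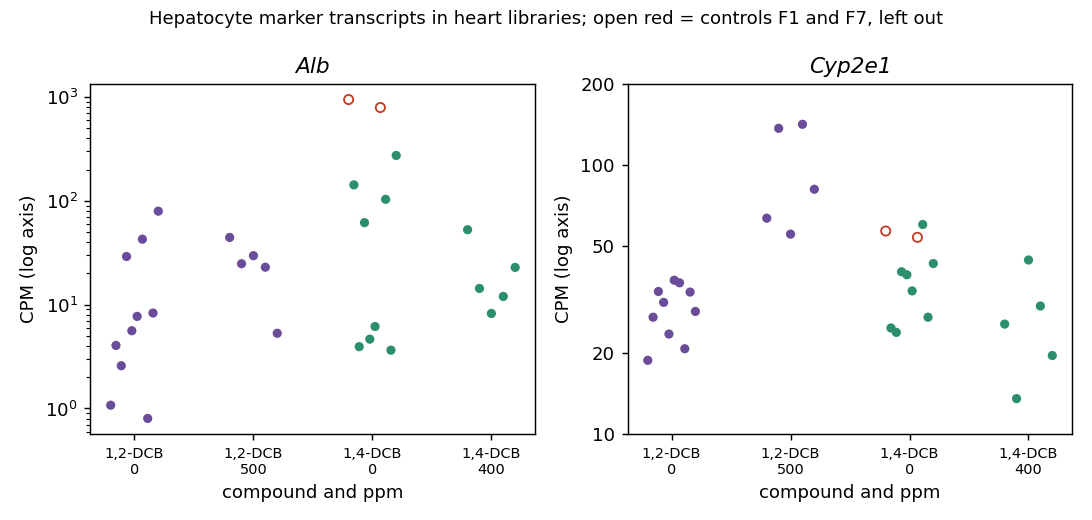
CPM of Alb and of Cyp2e1 on log axes, 1 point per heart library, by compound and ppm. The 1,4-DCB controls F1 and F7, left out of the comparison, are marked apart at 945 and 792 CPM of Alb, and Cyp2e1 at 500 ppm runs from 55.3 to 141.3 CPM, above all 1,2-DCB controls.

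Collagen and matrix genes were lower after 1,2-DCB than after 1,4-DCB. Of 32 tested probes of the collagen and matrix list, 13 were called and all 13 were lower, where 2.81% of all probes were called lower. The list's median difference was -0.66, beside 0.01 over all probes. Its median change was -0.68 with 1,2-DCB and -0.05 with 1,4-DCB.

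Col3a1, the chain of type III collagen, stood at 499.5, 384, 529, 347 and 319 CPM in rats F601 to F605, the order used for all 500 ppm values. The 1,2-DCB controls held 1426 to 2423 CPM (median 1521). The 1,4-DCB hearts held 1980.3, 1310.0, 1579.5, 1523 and 1563 CPM in F501 to F505 and 1332 to 2102 CPM (median 1623) in their controls. All 5 of the 500 ppm hearts lay far below every other library, and the 1,4-DCB groups overlapped. The compound difference was -1.97 ± 0.19 (SE, adjusted p = 8.1e-08). Col5a3, a minor fibrillar chain, was at 5.15, 3.60, 1.90, 3.15 and 4.51 CPM in the 500 ppm hearts and at 20.2 to 31.1 CPM in their controls. The 400 ppm hearts held 20.2, 21.7, 27.8, 11.4 and 14.4 CPM and their controls 17.4 to 35.03 CPM, so F504 and F505 were below all 1,4-DCB controls. The Col5a3 difference was -2.22 ± 0.26 (SE, adjusted p = 1.0e-06).

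Col1a2, a chain of type I collagen, fell to 293, 205.1, 263, 199 and 219 CPM from 419.8 to 555 CPM in controls, with 473 to 601.98 CPM at 400 ppm and 467 to 669.8 CPM in those controls. The 500 ppm hearts overlapped none of them, and the difference was -1.02 ± 0.13 (SE, adjusted p = 3.5e-06). Loxl1, a lysyl oxidase that acts on elastic fibres, was at 31.97 to 64.3 CPM in 500 ppm hearts and 96.6 to 179 CPM in their controls. At 400 ppm it was 99.8 to 156.2 CPM and in those controls 110.4 to 155.5 CPM, and the difference was -1.32 ± 0.20 (SE, adjusted p = 9.1e-05). Nrep, which is outside the list, followed the same order, with 8.39 to 17.1 CPM at 500 ppm and 25.4 CPM or more in each library of the other 3 groups (-1.53 ± 0.24, adjusted p = 7.3e-05). The other called members were Col6a1, Col6a2, Col6a3, Col4a1, Col4a2, Col5a1, Col1a1, Lum and the collagen chaperone Serpinh1, with differences from -2.56 ± 0.73 for Col1a1 to -0.64 ± 0.15 for Col4a2. They complete the count and were named after their values were seen. Col1a1 rested on group means of no more than 1.01 ± 0.552 CPM (SD, n = 10).

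Of 8 tested fibroblast markers 6 had negative and 2 positive differences, with a median of -0.79. Their summed level was 765 to 1044 CPM in 500 ppm hearts, 2056 to 3263 in their controls, 2015 to 2776 at 400 ppm and 1991 to 2972 in those controls. This sum largely repeats Col3a1 and Col1a2. They had medians of 1514 and 509 CPM in 1,2-DCB controls, beside 2270 CPM for the sum, and 383 and 219 CPM at 500 ppm, beside 862 CPM. The compound difference was called for 4 of the 8 markers, all lower, and these 4 (Col3a1, Col1a2, Col1a1 and Lum) are also on the collagen list. Dcn, the proteoglycan decorin of fibroblasts, was at 168 to 209.6 CPM in 500 ppm hearts and at 133.5 to 215 CPM in their controls, with a difference of 0.09 ± 0.14 (SE, adjusted p = 0.80). Fbln2, a fibulin of the matrix, was at 14.5 to 27.2 CPM and 7.53 to 16.8 CPM, with a difference of 0.67 ± 0.26 (SE, adjusted p = 0.14). Postn, the matrix protein periostin, was at 6.55 to 12.4 CPM and 9.76 to 21.7 CPM, with a difference of -0.65 ± 0.31 (SE, adjusted p = 0.26). Thy1, a surface glycoprotein, was at 3.65 to 6.50 CPM and 3.37 to 9.35 CPM, with a difference of -0.25 ± 0.29 (SE, adjusted p = 0.73). In bulk tissue, fewer cells of a type and less RNA per cell cannot be told apart.

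**Figure D3:**
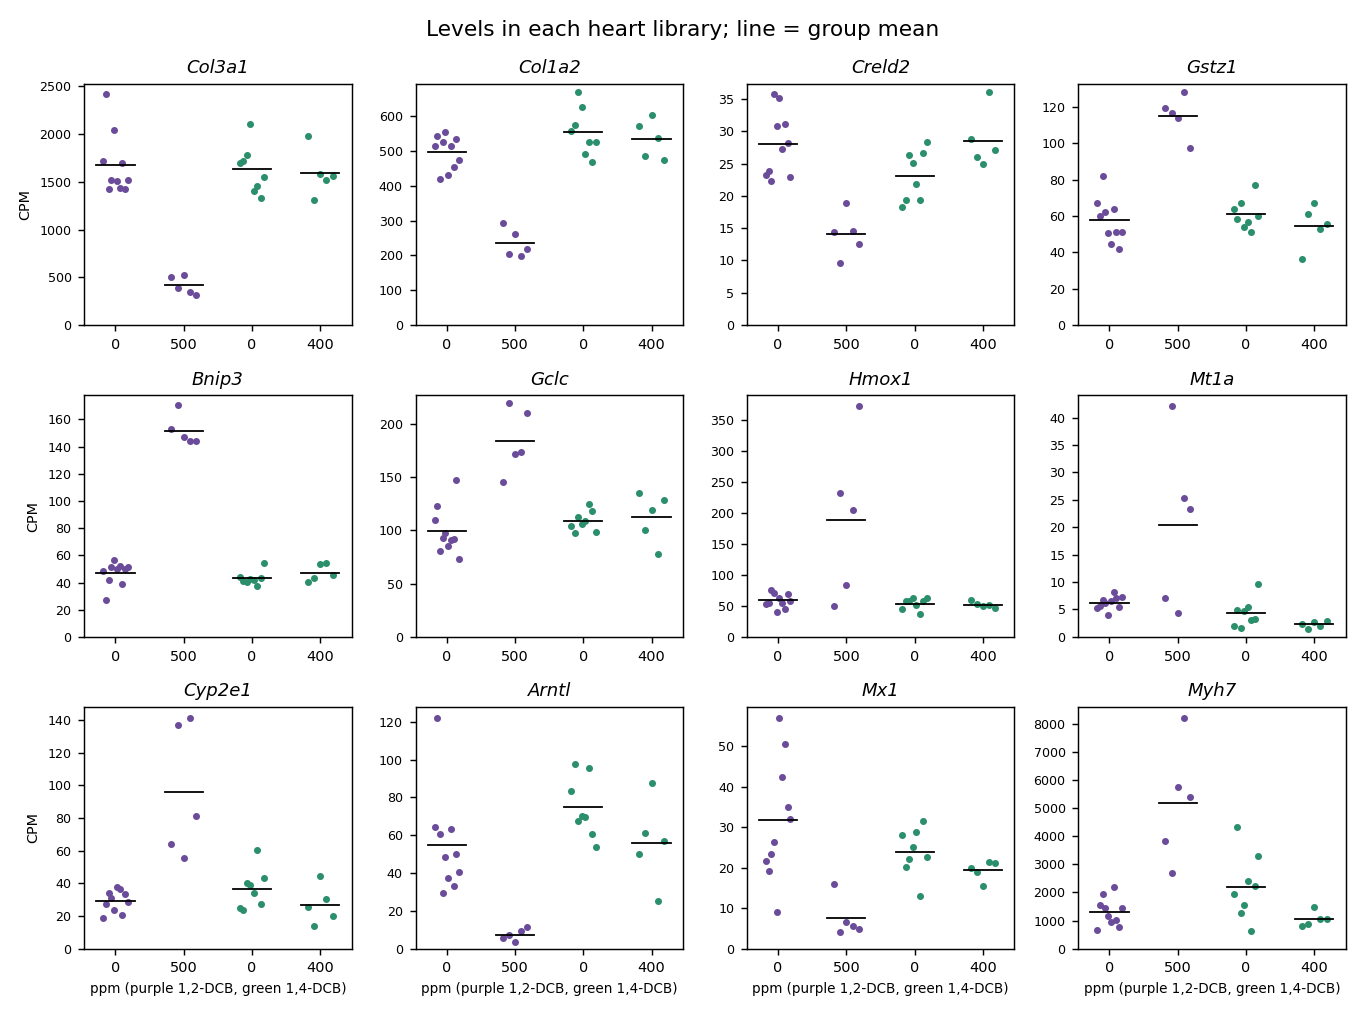
CPM of 12 named genes, 1 point per heart library, by compound (purple 1,2-DCB, green 1,4-DCB) and ppm, with a line at each group mean. Col3a1 and Bnip3 separate all 5 hearts at 500 ppm from the rest, while Hmox1 in those hearts runs from control levels to several times above them.

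Genes of the ER folding machinery moved in both directions. Of 23 tested probes of the ER stress and amino acid list, 3 were called lower and 1 higher, beside 2.81 and 2.61% of all probes, with a median difference of -0.23. Creld2, an ER chaperone, was at 14.4, 9.68, 18.97, 14.6 and 12.5 CPM in the 500 ppm hearts and at 22.2 to 35.8 CPM in their controls. At 400 ppm it was 24.99 to 36.05 CPM against 18.2 to 28.3 CPM in controls, so all 5 of the 500 ppm hearts were below their controls while 3 of the 400 ppm hearts lay within the range of theirs and 2 above it. The difference was -1.31 ± 0.20 (SE, adjusted p = 7.3e-05). Xbp1, a transcription factor of the unfolded protein response, was at 6.37 to 9.51 CPM at 500 ppm, 7.95 to 15.2 CPM in those controls, 9.53 to 15.8 CPM at 400 ppm and 6.72 to 12.2 CPM in those controls. Its difference was -0.80 ± 0.22 (SE, adjusted p = 0.027), and it was not called without F2, F4, F8 and F10, with Alb as a covariate, or without any 1 of F602, F605, F503 and F505. Hspa5, the main luminal chaperone, is the remaining lower member, named after its values were seen. Its mean was 91.2 ± 38.2 CPM (SD, n = 5) at 500 ppm and 146.98 ± 29.5 CPM (SD, n = 10) in controls, with a difference of -0.88 ± 0.24 (SE, adjusted p = 0.027). Herpud1, a part of ER-associated degradation, went the other way, to 802, 862, 849, 885 and 897 CPM from 396 to 578 CPM in controls. The highest of the 400 ppm hearts held 559 CPM, and the difference was 0.66 ± 0.10 (SE, adjusted p = 1.0e-04).

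The promoters of the 3 lower members are shown because all 3 hold the letters of the ER stress element, CCAAT and CCACG with 9 bases between them, which 0.0657% of 33465 RefSeq promoter windows of 250 bases hold on either strand. The window of Herpud1 does not hold these letters, and 5 of the 18 tested list members with a window do. Sequences run 5′ to 3′ along the gene for the 250 bases before its RefSeq start on the rat build GRCr8, with the match in capitals. Of the 48 genes that the naming rule picked, 41 had a window.
Hspa5, chr3:38452766-38453015, plus strand: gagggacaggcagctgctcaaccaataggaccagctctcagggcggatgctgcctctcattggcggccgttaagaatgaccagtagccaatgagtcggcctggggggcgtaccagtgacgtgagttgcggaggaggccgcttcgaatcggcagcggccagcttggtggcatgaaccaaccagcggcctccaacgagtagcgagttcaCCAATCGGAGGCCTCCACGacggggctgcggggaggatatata
Creld2, chr7:121789134-121789383, plus strand: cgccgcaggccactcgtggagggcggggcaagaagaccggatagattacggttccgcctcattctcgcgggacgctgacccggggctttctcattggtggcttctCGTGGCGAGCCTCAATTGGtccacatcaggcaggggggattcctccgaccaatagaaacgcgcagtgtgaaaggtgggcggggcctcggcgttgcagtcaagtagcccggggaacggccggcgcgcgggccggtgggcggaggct
Xbp1, chr14:84604373-84604622, plus strand: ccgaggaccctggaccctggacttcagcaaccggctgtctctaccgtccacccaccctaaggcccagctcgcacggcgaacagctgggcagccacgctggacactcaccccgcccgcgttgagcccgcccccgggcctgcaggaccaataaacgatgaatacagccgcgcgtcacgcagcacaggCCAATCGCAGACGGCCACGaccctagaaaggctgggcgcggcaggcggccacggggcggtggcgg
A match of letters is a description of these windows, and no binding was measured.

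NRF2 target genes were higher after 1,2-DCB. Of 20 tested probes 6 were called and all 6 were higher, beside 2.61% of all probes called higher, and the list's median difference was 0.58. Its median change was 0.41 with 1,2-DCB and -0.02 with 1,4-DCB. With 800 ppm in place of 400 ppm 1,4-DCB, the list's median difference was 0.27. Gclc, the catalytic subunit of the enzyme that limits glutathione synthesis, was at 145.3, 219, 171, 174 and 210.3 CPM in the 500 ppm hearts and 73.4 to 147.7 CPM in their controls. At 400 ppm the hearts held 135.2, 100.3, 118.9, 78.1 and 128.4 CPM and their controls 97.5 to 125.2 CPM. All but F601 of the 500 ppm hearts were above every 1,2-DCB control, and the difference was 0.84 ± 0.19 (SE, adjusted p = 0.0060). Ephx1, microsomal epoxide hydrolase, was at 16.6, 14.6, 16.7, 13.3 and 15.6 CPM at 500 ppm and at most 6.96 CPM in any library of the other groups. Its difference was 1.58 ± 0.26 (SE, adjusted p = 1.6e-04).

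Other called NRF2 targets varied among the 500 ppm hearts. Hmox1, haem oxygenase 1, was at 49.1, 231, 82.8, 203.96 and 372 CPM, against 40.9 to 76.1 CPM in controls. Those at 400 ppm held 59.4, 53.3, 49.4, 50.6 and 46.3 CPM and their controls 37.5 to 61.9 CPM. Heart F601 lay within the controls and F605 several-fold above them. The difference was 1.73 ± 0.40 (SE, adjusted p = 0.0090), a call that limma voom did not make. Txnrd1, cytosolic thioredoxin reductase, was at 44.6, 115.5, 59.3, 87.03 and 80.7 CPM, with 18.97 to 51.8 CPM in controls, 42.2 to 51.01 CPM at 400 ppm and 44.7 to 55.3 CPM in those controls. Sqstm1, the autophagy adaptor p62, was at 50.8, 133.2, 62.8, 106.5 and 88.3 CPM, with 41.04 to 52.4 CPM in controls, 42.4 to 50.1 CPM at 400 ppm and 37.7 to 50.3 CPM in those controls. Hearts F601 and F603 were the lowest pair for Hmox1, Txnrd1 and Sqstm1 alike. The differences were 1.02 ± 0.24 (SE, adjusted p = 0.0075) for Txnrd1 and 0.91 ± 0.19 (SE, adjusted p = 0.0022) for Sqstm1.

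Conjugation enzymes gave 3 calls among 10 tested probes, all higher, beside 2.61% of all probes called higher. The list's median difference was 0.35. Gstz1, which acts in tyrosine breakdown and on halogenated acids, was at 119.3, 116.4, 113.98, 128.2 and 97.2 CPM in the 500 ppm hearts and at 42.1 to 82.01 CPM in their controls. After 400 ppm 1,4-DCB they were 36.4, 61.3, 67.1, 52.7 and 55.6 CPM and their controls 51.4 to 76.9 CPM. No heart at 500 ppm overlapped another group, and the difference was 1.16 ± 0.19 (SE, adjusted p = 1.3e-04). Mgst1, a membrane-bound glutathione transferase, was at 10.8 to 23.2 CPM, with 5.07 to 10.8 CPM in controls, 5.43 to 8.71 CPM at 400 ppm and 6.46 to 10.54 CPM in those controls. Its difference was 1.35 ± 0.26 (SE, adjusted p = 7.6e-04). Gstp1, the pi class transferase, which is also on the NRF2 list, was at 61.3 to 69.7 CPM, with 46.2 to 65.1 CPM in controls, 39.7 to 49.2 CPM at 400 ppm and 40.2 to 53.4 CPM in those controls. Its difference of 0.40 ± 0.11 (SE, adjusted p = 0.027) was not called with upper quartile scaling, without F2, F4, F8 and F10, or without any 1 of F501, F504, F604 or the 1,4-DCB control F10. Whether each probe tells close paralogs apart was not tested.

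The Gstp1 window is shown for its match to the antioxidant response element, TGACNNNGC, here with letters that also spell the AP-1 core TGACTCA. On either strand 10.1% of all windows hold the element. Among genes of the NRF2 and conjugation lists with a window, 4 of the 7 called and 10 of the 23 tested ones match. These gene counts take a match in any window of a gene, so they are not on the same footing as the share of single windows. Ephx1 and Txnrd1 match in only 1 of their 2 windows.
Gstp1, chr1:210769706-210769955, minus strand: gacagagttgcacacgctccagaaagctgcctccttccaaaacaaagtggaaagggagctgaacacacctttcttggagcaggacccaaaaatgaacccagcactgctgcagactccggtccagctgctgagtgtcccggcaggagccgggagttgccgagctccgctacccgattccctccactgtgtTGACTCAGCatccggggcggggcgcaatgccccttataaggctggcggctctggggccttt

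Both metallothioneins were higher in 500 ppm hearts, to unequal degrees among rats. Mt1a was at 7.001, 42.0, 4.37, 25.4 and 23.3 CPM in F601 to F605 and at 4.01 to 8.24 CPM in their controls. At 400 ppm, Mt1a was 2.39, 1.52, 2.72, 1.96 and 2.88 CPM and in those controls 1.57 to 9.61 CPM. The difference was 2.61 ± 0.57 (SE, adjusted p = 0.0052). Mt2a was at 2.11, 20.9, 2.72, 20.002 and 12.8 CPM, with 0.407 to 2.52 CPM in controls, 0.330 to 1.41 CPM at 400 ppm and 0.343 to 1.85 CPM in those controls, and the difference was 3.45 ± 0.74 (SE, adjusted p = 0.0039). Hearts F601 and F603 held control levels or little more, and the other 3 hearts held the excess. Limma voom called neither gene. Fkbp5, a glucocorticoid-induced co-chaperone, was at 86.8, 310.1, 127.4, 169 and 281 CPM, with 63.8 to 132.4 CPM in controls, 87.9 to 140.9 CPM at 400 ppm and 85.1 to 142.6 CPM in those controls. Its difference of 1.18 ± 0.31 (SE, adjusted p = 0.022) was not called without F602, without F605 or without F2, F4, F8 and F10. Glul, glutamine synthetase, was more even at 176, 218, 162, 219.6 and 220.1 CPM, against 86.5 to 126.6 CPM in controls, 103.5 to 120.5 CPM at 400 ppm and 93.01 to 113.6 CPM in those controls. No other group reached the 500 ppm hearts, and the difference was 0.80 ± 0.12 (SE, adjusted p = 2.5e-05). These were the 4 members called, all higher, of 14 tested probes on the list of glucocorticoid targets and metallothioneins. Of all probes 2.61% were called higher, and the list's median difference was 0.17.

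The metallothionein windows are shown for matches to TGCNCNC on either strand, a loose form of the metal response element that allows any base at N. A match to these letters need not be such an element. At least 1 match occurs in 43.4% of all windows, while 7 or more, as in the Mt1a window, occur in 0.0598%. The Mt2a window holds 5. At least 1 match occurs for 3 of the 4 called members of their list and for 7 of the 10 tested ones with a window.
Mt1a (RefSeq Mt1), chr19:10832976-10833225, minus strand: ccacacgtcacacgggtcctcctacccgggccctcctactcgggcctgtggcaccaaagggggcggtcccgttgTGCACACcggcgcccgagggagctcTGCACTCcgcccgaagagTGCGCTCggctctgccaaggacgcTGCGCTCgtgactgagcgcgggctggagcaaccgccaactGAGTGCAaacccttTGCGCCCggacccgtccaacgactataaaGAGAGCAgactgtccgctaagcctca
Mt2a (RefSeq Mt2A), chr19:10838709-10838958, minus strand: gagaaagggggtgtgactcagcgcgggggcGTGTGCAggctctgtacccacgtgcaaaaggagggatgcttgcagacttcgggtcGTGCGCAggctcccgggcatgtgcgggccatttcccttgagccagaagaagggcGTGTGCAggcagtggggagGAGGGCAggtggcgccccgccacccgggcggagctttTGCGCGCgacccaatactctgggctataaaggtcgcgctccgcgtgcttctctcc

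Genes of energy and drug metabolism differed one by one. Bnip3, a mitochondrial protein of mitophagy and a hypoxia target, was at 152.9, 170.5, 146.8, 144.3 and 144.0001 CPM in the 500 ppm hearts and at 26.9 to 56.6 CPM in their controls. The 400 ppm hearts held 40.4, 43.1, 53.4, 54.1 and 45.5 CPM and their controls 37.1 to 54.7 CPM. Every heart at 500 ppm was more than 2-fold above every other library, and the difference was 1.57 ± 0.16 (SE, adjusted p = 8.1e-08). Of the 20 tested probes for glycolysis and hypoxia, 1 was called higher and 1 lower, beside 2.61 and 2.81% of all probes. Bnip3 was the higher one and Apln, the vascular peptide apelin, the lower one. Apln was at 6.35 to 11.5 CPM in 500 ppm hearts, 12.3 to 20.9 CPM in their controls, 12.1 to 16.7 CPM in 400 ppm hearts and 11.4 to 16.4 CPM in theirs, with a difference of -0.81 ± 0.18 (SE, adjusted p = 0.0060). The list's median difference was -0.03.

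Cyp2e1, a cytochrome P450 that oxidises benzene and other small solvents, was at 63.8, 136.96, 55.4, 141.4 and 81.3 CPM in the 500 ppm hearts. Its 1,2-DCB controls held 19.02 to 37.5 CPM, the 400 ppm hearts 25.6, 13.6, 44.5, 30.1 and 19.7 CPM, and the 1,4-DCB controls 23.9 to 60.4 CPM. The difference was 2.17 ± 0.38 (SE, adjusted p = 5.7e-04). It is also on the hepatocyte list, and the 500 ppm hearts with the most Cyp2e1, F602 and F604, held 24.8 and 22.9 CPM of Alb. Of their 10 controls, 3 held more Alb than both hearts and the rest held less, with a control median of 6.66 CPM. Cyp2e1 stayed called with Alb as a covariate and with F2, F4, F8 and F10 left out. Alas1, the first enzyme of haem synthesis, was lower at 419, 194, 316, 242 and 299 CPM, against 358 to 473 CPM in controls, 411 to 536 CPM at 400 ppm and 376 to 452 CPM in those controls. Its difference was -0.62 ± 0.15 (SE, adjusted p = 0.0090), it was lowest in F602 and F604, and it was not called without F2, F4, F8 and F10. With Ephx1 these were the 3 called of 14 tested drug metabolism probes, 2 higher and 1 lower, beside 2.61 and 2.81% of all probes. The list's median difference was 0.43.

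Orm1, an acute phase plasma protein, was at 8.60, 10.3, 18.2, 12.001 and 13.7 CPM in 500 ppm hearts and at most 4.32 CPM in every other library, with a difference of 2.96 ± 0.55 (SE, adjusted p = 7.6e-04). Tnfaip3, a brake on NF-κB, was at 12.7 to 20.8 CPM against 6.52 to 13.8 CPM in controls, with 8.95 to 12.1 CPM at 400 ppm and 9.55 to 16.6 CPM in those controls, and its difference was 0.89 ± 0.22 (SE, adjusted p = 0.0093). They were the 2 members called among 33 tested inflammation probes, beside 5.41% of all probes called. The list's median difference was 0.18. Fdft1, squalene synthase, was the 1 called of 25 probes for cholesterol and fatty acid synthesis, at 195 to 310.3 CPM in 500 ppm hearts, 99.9 to 216 CPM in their controls and 142.7 to 177 CPM in 400 ppm hearts (0.82 ± 0.18, adjusted p = 0.0060). Maff, a small MAF factor, was the 1 called of 18 immediate early gene probes (1.03 ± 0.31, adjusted p = 0.042), and 16 of the 28 fits without 1 library did not call it. The counts for these lists too stand beside 5.41% of all probes called.

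Some genes outside the lists were named for the size of their difference. Slc26a3, an anion exchanger, was at 21.1, 51.3, 22.02, 35.3 and 39.5 CPM in 500 ppm hearts, 11.7 to 23.4 CPM in their controls and 12.6 to 19.3 CPM in 400 ppm hearts (1.09 ± 0.26, adjusted p = 0.0070). Kcnk2, a stretch-activated potassium channel, was lower at 31.4, 14.8, 24.2, 12.8 and 22.8 CPM, against 38.04 to 75.9 CPM in controls and 45.04 to 63.9996 CPM at 400 ppm (-1.22 ± 0.25, adjusted p = 0.0022). All 5 hearts were below every control. Ppp1r3b, a glycogen-targeting phosphatase subunit, was at 15.1 to 30.9 CPM in 500 ppm hearts and 9.55 to 19.9 CPM in their controls. It was at 10.2 to 16.4 CPM in 400 ppm hearts and 11.99 to 16.4 CPM in theirs. The difference was 0.85 ± 0.22 (SE, adjusted p = 0.016), a call lost without F605. Twf2, an actin-binding protein, was at 31.3 to 90.4 CPM and 34.3 to 42.4 CPM (0.87 ± 0.24, adjusted p = 0.027), a call lost without any 1 of F602, F604, F605, F501, F502 or F503. Neither Ppp1r3b nor Twf2 was called without F2, F4, F8 and F10.

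Of 11 tested probes of sarcomere and calcium handling genes, 1 was called higher and 1 lower, beside 5.41% of all probes called, and the list's median difference was 0.14. Myh7, the slow beta myosin heavy chain, was at 3834, 2693, 5741, 8206 and 5377 CPM in the 500 ppm hearts and at 680.0 to 2179.7 CPM (median 1303) in their controls. The 400 ppm hearts held 797, 887, 1464, 1042 and 1069 CPM and their controls 631 to 4325 CPM (median 2082). The 500 ppm hearts did not overlap their own controls, while the 400 ppm hearts lay within the range of theirs. The Myh7 difference was 3.04 ± 0.50 (SE, adjusted p = 3.0e-04), made up of 1.98 ± 0.32 (SE, adjusted p = 9.3e-05) with 1,2-DCB and -1.07 ± 0.36 (SE, adjusted p = 0.63) with 1,4-DCB. Actc1, cardiac actin, was at 2277 to 3351 CPM in 500 ppm hearts, 3159.6 to 5793 CPM in their controls, 3543 to 4438 CPM in 400 ppm hearts and 3494 to 4429.5 CPM in theirs. Its difference of -0.49 ± 0.15 (SE, adjusted p = 0.045) was lost in 15 of the 28 fits without 1 library. Nrap and Myoz2, muscle genes outside the list that were named after their values were seen, were called higher, by 0.76 ± 0.17 (adjusted p = 0.0060) and 0.37 ± 0.11 (adjusted p = 0.047). Myl2 differed by -0.01 ± 0.12 and Myh6, the fast alpha chain, by -0.11 ± 0.14. Acta1, the skeletal actin that is also made in heart, was at 1319 to 2613 CPM at 500 ppm and 352 to 1764 CPM in controls, and its difference was 0.62 ± 0.45 (SE, adjusted p = 0.53). Of 10 skeletal muscle markers on the panel, Acta1 and 3 others were tested and none was called, with a median difference of 0.67. Tnnt3, a fast troponin T, was at 4.46 to 9.05 CPM at 500 ppm and 5.49 to 10.55 CPM in controls, and Mylpf, a fast myosin light chain, at 1.17 to 2.62 CPM and 0.166 to 1.86 CPM. The fast myosin Myh1 and the calcium buffer Pvalb did not exceed 0.321 CPM in any fitted library.

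The clock activators were far lower in the 500 ppm hearts. Arntl was at 5.74, 7.07, 3.30, 9.51 and 11.4 CPM, against 29.3 to 121.8 CPM (median 49.2) in controls. The 400 ppm hearts held 49.8, 61.1, 87.5, 25.1 and 56.9 CPM and their controls 53.995 to 97.8 CPM. The difference was -2.46 ± 0.45 (SE, adjusted p = 8.3e-04). Npas2 was at 3.87 to 5.61 CPM in 500 ppm hearts, 14.4 to 29.6 CPM in their controls, 10.8 to 24.4 CPM at 400 ppm and 17.3 to 31.02 CPM in those controls, with a difference of -1.77 ± 0.23 (SE, adjusted p = 4.6e-06). Neither gene's 500 ppm values overlapped any other group. Of 8 tested clock probes these 2 were called, both lower, beside 2.81% of all probes called lower. The other 6 were not called, and the list's median difference was 0.10. Dbp, an output gene of the clock named after its values were seen, rose from 181 ± 88.9 CPM (SD, n = 10) to 602.5 ± 145.3 CPM (SD, n = 5) with 1,2-DCB (1.74 ± 0.29, adjusted p = 1.1e-04), and its compound difference was 0.90 ± 0.44 (SE, adjusted p = 0.28).

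The Arntl window is shown for its match to TAGGTCA, the core of the ROR element, which 2.26% of all windows hold on either strand and the Npas2 window does not. Of the 7 tested clock list members with a window, 1 holds it.
Arntl (RefSeq Bmal1), chr1:176766078-176766327, plus strand: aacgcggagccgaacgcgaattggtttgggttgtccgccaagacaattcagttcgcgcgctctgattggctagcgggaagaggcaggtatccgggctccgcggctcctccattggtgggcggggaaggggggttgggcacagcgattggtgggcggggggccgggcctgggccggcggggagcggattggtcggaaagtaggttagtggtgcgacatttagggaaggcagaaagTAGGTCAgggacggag

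Of 22 tested probes of interferon-induced genes 4 were called, all lower after 1,2-DCB, beside 2.81% of all probes called lower. Differences were negative for 20 of the 22, with a median of -0.58. Mx1, an antiviral GTPase, was at 16.03, 4.12, 6.60, 5.64 and 4.91 CPM in the 500 ppm hearts, 9.15 to 56.99 CPM in their controls, 15.4 to 21.3 CPM at 400 ppm and 12.9 to 31.5 CPM in those controls. Oas1a, an oligoadenylate synthetase, was at 21.8, 5.50, 12.1, 9.64 and 9.22 CPM, with 17.1 to 63.8 CPM in controls, 22.4 to 32.04 CPM at 400 ppm and 18.4 to 40.1 CPM in those controls. Heart F601 overlapped the controls for both genes and the other 4 hearts did not. The differences were -1.80 ± 0.47 (SE, adjusted p = 0.022) for Mx1 and -1.55 ± 0.42 (SE, adjusted p = 0.025) for Oas1a, and without any 1 of F602, F604 or F605 neither was called. Irf7, the factor that amplifies this response, was at 0.660 to 1.94 CPM at 500 ppm, 1.85 to 6.60 CPM in those controls and 1.997 to 3.63 CPM at 400 ppm (-1.46 ± 0.41, adjusted p = 0.027). It was not called without any 1 of F602, F603, F604, F501 or F502. Eif2ak2, the kinase PKR, completes the 4 and was named after its values were seen (-0.44 ± 0.14, adjusted p = 0.047). Without F2, F4, F8 and F10, 0 of the 22 probes were called.

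The Oas1a window is shown for 2 overlapping matches to the interferon-stimulated response element, GAAA and GAAA with 2 bases between them. On either strand 3.41% of all windows hold it. So do 3 of the 4 called genes and 8 of the 13 tested list members with a window. The Mx1 window does not hold it.
Oas1a, chr12:41330216-41330465, plus strand: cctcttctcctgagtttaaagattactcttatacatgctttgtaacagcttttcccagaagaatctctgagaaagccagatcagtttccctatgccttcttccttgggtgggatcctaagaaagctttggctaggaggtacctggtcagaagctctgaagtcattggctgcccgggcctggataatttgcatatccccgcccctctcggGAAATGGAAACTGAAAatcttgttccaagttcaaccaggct

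Cell cycle genes gave 3 calls among 34 tested probes, 2 higher and 1 lower, beside 2.61 and 2.81% of all probes. The list's median difference was -0.36, against the direction of most of its calls, and 0.15 with the filter at 20 CPM. Ccna2, cyclin A2, was at 0.196 to 0.577 CPM in 500 ppm hearts and 1.29 to 5.54 CPM in their controls, and at 0.660 to 1.78 CPM in 400 ppm hearts and 1.23 to 4.04 CPM in theirs. Its change was -2.93 ± 0.38 (SE, adjusted p = 1.4e-06) with 1,2-DCB and -1.29 ± 0.34 (SE, adjusted p = 0.26) with 1,4-DCB, and the difference of -1.65 ± 0.49 (SE, adjusted p = 0.042) was lost in 16 of the 28 fits without 1 library. Mcm2, a subunit of the DNA replication helicase, was at 19.3 to 30.95 CPM in 500 ppm hearts, 18.1 to 23.9 CPM in their controls, 13.4 to 17.8 CPM in 400 ppm hearts and 18.7 to 26.3 CPM in theirs. All 400 ppm hearts were below their controls, and the difference was 0.59 ± 0.15 (SE, adjusted p = 0.019), lost without F602. Stmn1, a microtubule regulator, differed by 0.40 ± 0.11 (SE, adjusted p = 0.027), a call lost with upper quartile scaling, with Alb as a covariate, or without any 1 of F502, F504, F602, F605 and the 1,4-DCB controls F3 and F10. Without F2, F4, F8 and F10, none of these 3 was called. Pno1, a ribosome assembly factor, was at 28.8, 27.3, 29.2, 27.02 and 50.2 CPM in 500 ppm hearts, 23.3 to 106.1 CPM in their controls, 25.6, 61.6, 61.03, 69.2 and 74.2 CPM in 400 ppm hearts and 22.3 to 62.7 CPM in theirs. These ranges all overlap, and its difference was -1.78 ± 0.49 (SE, adjusted p = 0.028). The control sets themselves stood apart, with means of 66.9 ± 27.3 CPM (SD, n = 10) for 1,2-DCB and 34.8 ± 17.1 CPM (SD, n = 8) for 1,4-DCB. Means were 32.5 CPM at 500 ppm and 58.3 CPM at 400 ppm, so the gap between controls is part of this difference. Pno1 was not called by limma voom, with all 14 heart groups fitted, without F2, F4, F8 and F10, or without any 1 of F504, F505, F602 and F604.

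Hspd1, a mitochondrial chaperonin, was the 1 called of 10 heat shock probes (-0.32 ± 0.09, adjusted p = 0.024), beside 5.41% of all probes called. It was at 685 to 795 CPM in 500 ppm hearts, 761 to 936 CPM in their controls and 889.9 to 1063 CPM in 400 ppm hearts. It was not called with all 14 heart groups fitted, without F2, F4, F8 and F10, or without F505 or F604. The lists for mitochondrial respiration (12 probes), p53 targets (15) and proteasome (6) held 0 called probes, with median differences of 0.01, 0.04 and 0.07. The other marker lists held no called probe apart from genes already named. Among the lists with small numbers of tested probes, median differences were 0.86 for adipocyte markers (2 probes), 0.71 for mesothelial markers (2), 0.67 for skeletal muscle markers (4) and 0.28 for the 1 atrial marker. They were -0.06 for ventricular muscle markers (4), -0.22 for endothelial markers (5 probes), -0.14 for macrophage markers (11), -0.15 for lymphocyte markers (5), -0.25 for neutrophil markers (3), 0.23 for smooth muscle markers (4) and 0.07 for erythroid markers (2). The part of other cell types in these differences was not tested.

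**Figure D4:**
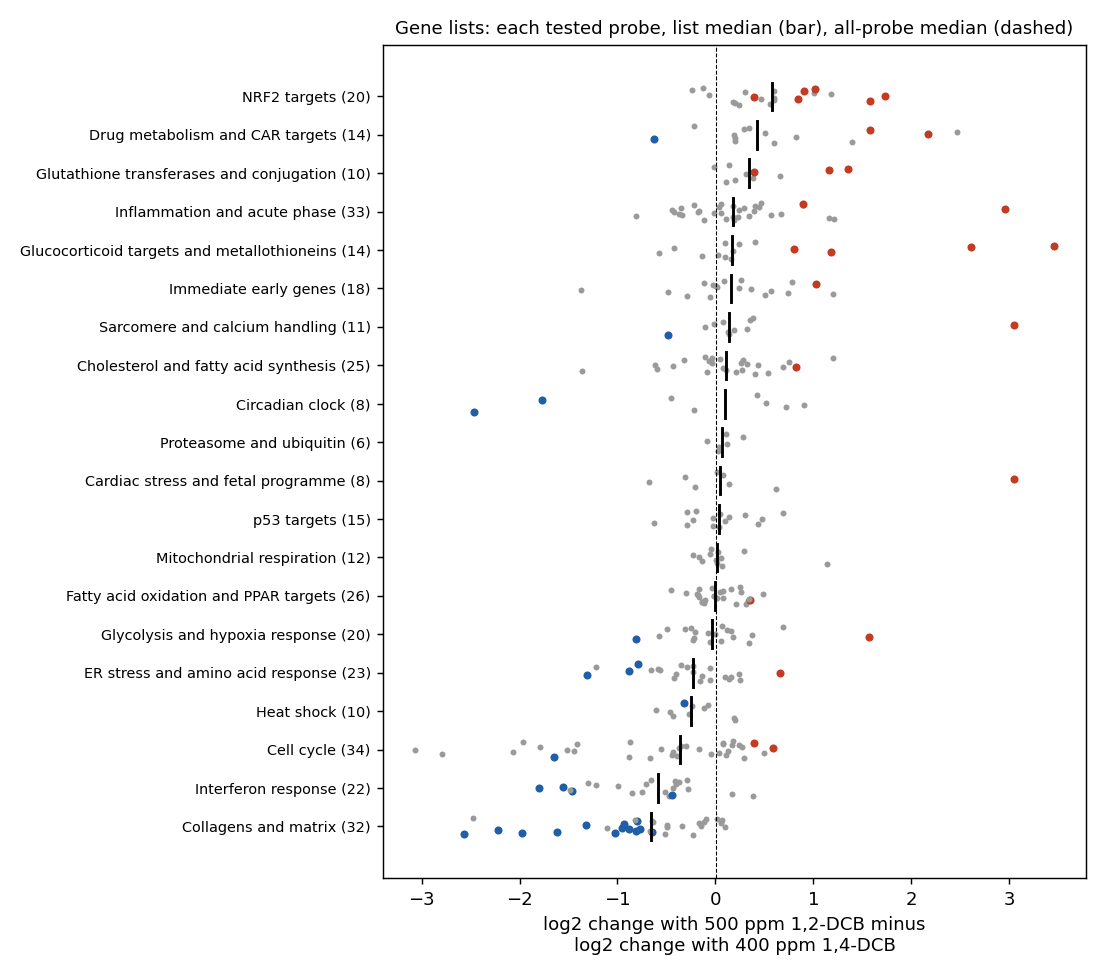
Each point is a tested probe of a gene list at its log2 difference between the compounds, red or blue where called, with a bar at the list's median and a dashed line at the median of all probes, 0.01. The collagen and matrix median is -0.66 and the NRF2 target median 0.58.

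The concentrations on either side were examined next, with 5 rats at each. The change with 500 ppm 1,2-DCB minus the change with 800 ppm 1,4-DCB was called at 88 of 2032 probes (4.33%), 40 higher (1.97%) and 48 lower (2.36%). The count was 50 without F2, F4, F8 and F10, 48 with Alb as a covariate, and 49 to 57 without any 1 of F602, F604, F605 or the 800 ppm rat F603. The change with 250 ppm 1,2-DCB minus that with 400 ppm 1,4-DCB was called at 0 of 2059 probes (0%) by edgeR and 0 by DESeq2, with 86 at an unadjusted p below 0.05. Its 95% interval excluded a doubling and a halving at 1458 of those probes. In a fit of all 14 heart groups, each exposed group was also compared with its own controls. For 1,2-DCB, 350 of 2133 probes were called at 500 ppm (16.4%), 0 at 250 ppm (7.97% at an unadjusted p below 0.05), 4 at 100 ppm (0.188%), 2 at 30 ppm (0.0938%), 0 at 10 ppm (6.24% at an unadjusted p below 0.05) and 241 at 1 ppm (11.3%), so the counts did not follow concentration. The 1 ppm count was 21 (0.981%) without the 1 ppm heart F101 and 50 (2.33%) without F102, but 339 to 351 without any 1 of the other 3. Hearts F101 and F102 held 154022 and 51177 CPM of Myl2, against 288052 to 324820 in the other 3, and 4479 and 2595 CPM of Col3a1, against 1646 to 1866. The part of these libraries' makeup in the 1 ppm count was not tested, and no 1 ppm heart entered the 28-library fit. For 1,4-DCB, 72 probes were called at 800 ppm (3.38%) and 0 at each lower concentration, with 2.67 to 5.86% of probes at an unadjusted p below 0.05. These comparisons share libraries with the first one, so values are set side by side. Levels in the next paragraphs come from a joint scaling of 78 heart libraries and differ slightly from those above.

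Arntl and Npas2, 2 of the 8 tested clock probes, were low with both compounds at their highest concentrations. Arntl was at 7.53 ± 3.23 CPM with 500 ppm 1,2-DCB and 8.36 ± 0.900 CPM with 800 ppm 1,4-DCB, from 56.8 ± 22.8 CPM at 400 ppm 1,4-DCB and 45.2 ± 14.03 CPM at 250 ppm 1,2-DCB (SD, n = 5 each). Its difference between 500 and 800 ppm was 0.29 ± 0.40 (SE, adjusted p = 0.78), with an interval of -0.53 to 1.11, so a doubling is not excluded. Npas2 was at 4.38 ± 0.752 and 4.92 ± 1.07 CPM (SD, n = 5 each), with a difference of -0.04 ± 0.22 (SE, adjusted p = 0.95) and an interval of -0.48 to 0.41. Ephx1 was at 15.6 ± 1.40 CPM at 500 ppm and 13.3 ± 1.12 CPM at 800 ppm, beside 5.08 ± 1.19 CPM at 400 ppm (SD, n = 5 each), and the interval of its difference was -0.29 to 0.66. Orm1 was at 12.8 ± 3.76 and 6.97 ± 4.39 CPM (SD, n = 5 each), a difference of 0.89 ± 0.58 (SE, adjusted p = 0.47). Col5a3 reached 6.29 ± 1.65 CPM at 800 ppm, beside 3.72 ± 1.27 CPM at 500 ppm (SD, n = 5 each), a difference of -0.62 ± 0.24 (SE, adjusted p = 0.17).

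Other genes were called against 800 ppm. Col3a1 was at 423 ± 94.3 CPM with 500 ppm 1,2-DCB and 1300.0 ± 100.8 CPM with 800 ppm 1,4-DCB (SD, n = 5 each), a difference of -1.68 ± 0.18 (SE, adjusted p = 1.4e-06). Bnip3 was at 154.3 ± 11.3 and 66.3 ± 9.05 CPM (SD, n = 5 each), a difference of 1.08 ± 0.16 (SE, adjusted p = 1.4e-04). Gstz1 was at 117.01 ± 11.7 and 58.97 ± 13.9 CPM (SD, n = 5 each), a difference of 1.05 ± 0.19 (SE, adjusted p = 0.0011). None of these 3 genes reached its 500 ppm level in any 800 ppm heart. Cyp2e1 was at 97.5 ± 41.8 and 28.4 ± 12.02 CPM (SD, n = 5 each), a difference of 2.09 ± 0.39 (SE, adjusted p = 0.0029). List medians against 800 ppm were 0.27 for NRF2 targets, -0.51 for collagen and matrix, -0.78 for interferon-induced genes and -0.04 for cell cycle genes. Against 400 ppm they were 0.58, -0.66, -0.58 and -0.36. At 250 ppm 1,2-DCB, Col3a1 was at 1427 ± 169 CPM, Bnip3 at 51.4 ± 3.94, Gstz1 at 58.5 ± 10.03 and Cyp2e1 at 31.5 ± 9.99 CPM (SD, n = 5 each). Their 1,2-DCB control means were 1688 ± 329, 47.1 ± 8.65, 58.1 ± 12.05 and 29.5 ± 6.51 CPM (SD, n = 10 each).

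**Figure D5:**
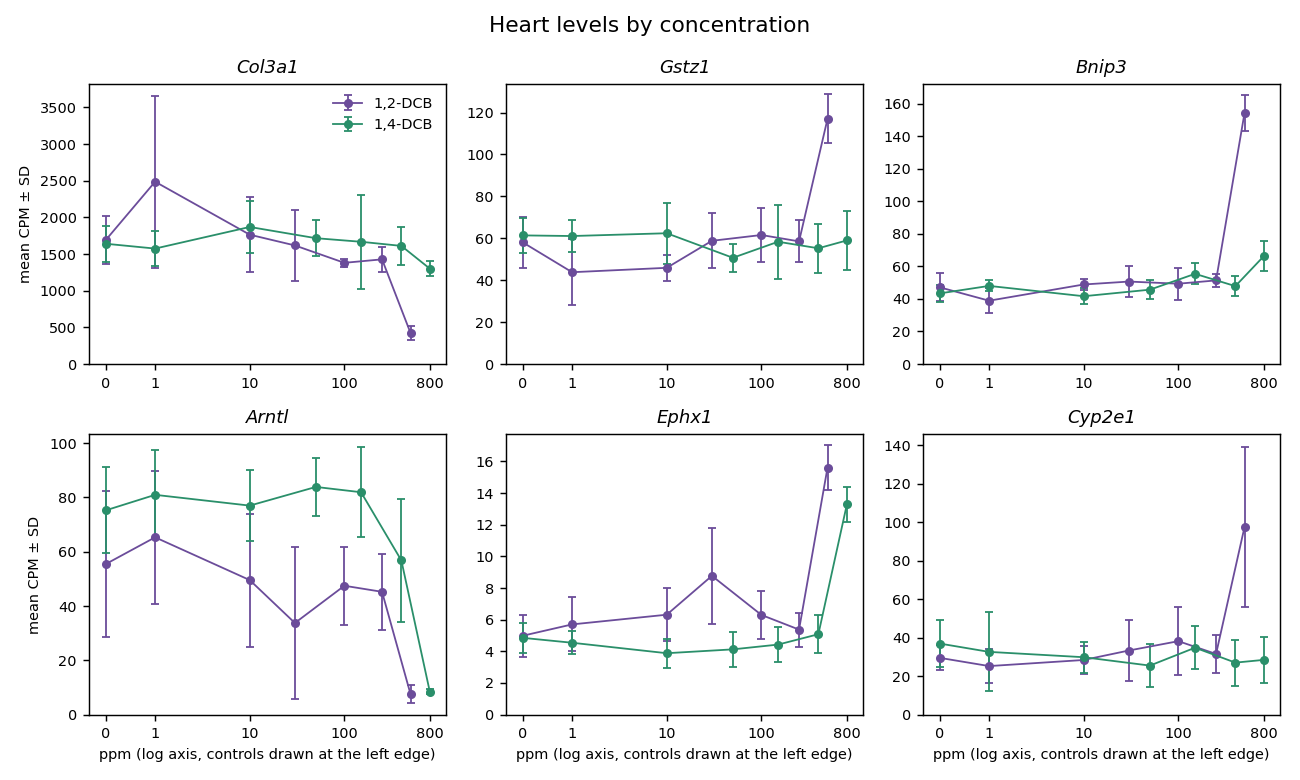
Mean CPM ± SD of 6 genes in heart at each ppm of 1,2-DCB (purple) and 1,4-DCB (green), with 5 rats per exposed point and 10 (1,2-DCB) or 8 (1,4-DCB) control rats. Col3a1 is 423 ± 94.3 CPM with 500 ppm 1,2-DCB and 1300.0 ± 100.8 CPM with 800 ppm 1,4-DCB, while Arntl is 7.53 ± 3.23 and 8.36 ± 0.900 CPM.

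Of the 45 called genes named by the rule, 25 kept their call and direction under every alternative that tested them and without any 1 library: Apln, Arntl, Bnip3, Col1a2, Col3a1, Col5a3, Creld2, Cyp2e1, Ephx1, Fdft1, Gclc, Glul, Gstz1, Herpud1, Kcnk2, Loxl1, Mgst1, Myh7, Npas2, Nrep, Orm1, Slc26a3, Sqstm1, Tnfaip3 and Txnrd1. Of the others described here, limma voom did not call Actc1, Ccna2, Hmox1, Irf7, Maff, Mt1a, Mt2a, Pno1 and Twf2, and the fit of all 14 heart groups did not call Actc1, Ccna2, Hspd1, Irf7, Mx1 and Pno1. With Alb as a covariate Actc1, Irf7, Maff, Stmn1 and Xbp1 were not called. The count of called probes ran from 4.05%, without F605, to 7.12%, without F601.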

How the data were processed

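TempO-Seq libraries from rat heart were analysed as whole-number read counts per probe, deposited by the authors as attenuation-adjusted raw read counts. Reads were aligned with Bowtie 1.3.1, per the submitters' processing notes, and the probe reference was not given in the sources used here. Attenuation means that probes of abundant transcripts are damped and their counts scaled back: 113 of 2654 probes had counts that are all multiples of 3 or more, 99 of them among those tested. Groups came from the labels, and each replicate is 1 rat. The 1,4-DCB controls F1 (3868375 counts) and F7 (11199376 counts) carry no quality mark in the labels and were left out by the rule that defines the comparison.

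Counts were scaled by TMM, filtered with filterByExpr (minimum count 10) and fitted over 28 libraries with edgeR 4.0.16 (robust quasi-likelihood) in R 4.3.3, with limma 3.58.1 and DESeq2 1.42.0 as alternatives, and p-values were adjusted over all tested probes by the Benjamini-Hochberg method. The same pipeline was tested on simulated data. CPM of named genes come from the tested probes, and those of Alb and the cell type markers from all probes of 30 libraries. PCR copies cannot be told apart here, so depth speaks to counting error only. Intervals are estimates plus or minus a t quantile times the SE.

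Named genes are the 12 largest differences in each direction, taken from called probes that average 20 CPM or more in some group. Each list added its called members of smallest p, at most 3. Where a list had no called member, its most abundant gene was also picked. A gene that the rule picked is not reported here. The members, lists and rules were chosen with earlier results of these data known. Alternatives were other normalizations, tools and filters, counts divided by probe steps, all 14 heart groups in 1 fit, F1 and F7 kept, and each library left out. The alternatives without F2, F4, F8 and F10 and with log2(Alb CPM + 1) as a covariate, and those leaving out each 1 ppm heart, were chosen after seeing the data. Control animal numbers recur in both control sets. Over 8 such pairs, deviations from the group means correlated between -0.17 and 0.24, so the numbers do not pair the samples.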

Additional observations from a re-analysis of the deposited data

Results flagged for a closer look

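The change in heart differed between the compounds at 110 probes by the test of the difference itself, as described above. Among 192 sets of values, each of 1 named gene in 1 group of 5, 8 or 10 hearts, 14 held a library set apart by a wide gap. Chance gives about 1 in 20 for independent, normally distributed values. These sets share 28 libraries and hold CPM that were not put on a log scale, so no rate is read from the 14. Among 1,2-DCB controls the values set apart were Npas2 at 29.6 CPM and Ccna2 at 5.54 CPM in F1, Arntl at 121.8 CPM and Txnrd1 at 18.97 CPM in F2, Kcnk2 at 75.9 CPM in F3, Fkbp5 at 132.4 CPM in F9 and Orm1 at 4.32 CPM in F10. All but Txnrd1 were the highest of their group. Among 1,4-DCB controls, F10 was highest for Mt1a at 9.61 CPM and for Bnip3 at 54.7 CPM, and it held 274 CPM of Alb. At 500 ppm 1,2-DCB, F601 was highest for Mx1 at 16.03 CPM, F603 for Npas2 at 5.61 CPM and F605 for Pno1 at 50.2 CPM. At 400 ppm 1,4-DCB, F501 was lowest for Pno1 at 25.6 CPM and F504 for Glul at 103.5 CPM.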

How the results depend on the processing

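The 110 probes of the compound difference (5.41% of those tested) became 98 to 140 under the other planned settings and 4.05 to 7.12% without any 1 library, while leaving out F2, F4, F8 and F10 too gave 63 (3.11%). For 1,2-DCB at 500 ppm the 359 probes became 254 to 386, and 260 to 367 without any 1 library. For 1,4-DCB at 400 ppm DESeq2 called 2 (0.0984%), and every other setting run 0. Between the control sets, 9 probes (0.443%) became 50 with DESeq2 (2.46%), 37 with the filter at 20 CPM (3.78%), 31 with all heart groups fitted (1.45%), 53 with F1 and F7 kept (2.60%), 1 with upper quartile scaling (0.0492%), 1 without F2, F4, F8 and F10 (0.0493%) and 1 with Alb as a covariate (0.0492%). Without any 1 library it ran from 1 probe in 8 fits (lowest share 0.0492%) to 34 (1.68%), without the 1,2-DCB control numbered 2, and 17 of 28 such fits moved it by over 1.5 times. The 500 against 800 ppm count of 88 (4.33%) became 50 without F2, F4, F8 and F10 (2.46%) and 48 with Alb as a covariate (2.36%). Without any 1 library it ran from 2.39%, without F602, to 5.80%, without F601, and was 57 without F604, 57 without F605 and 56 without the 800 ppm rat F603. The 250 against 400 ppm count was 0 in every setting run.

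A fit of the controls only, with the animal number as a replicate block, called 0 probes, and without the block also 0, each with 286 of 1907 at an unadjusted p below 0.05. No paired analysis was possible because exposed and control rats share no animal numbers, for the compound difference. The animal number was the best match for 2 of 8 control pairs.

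List medians moved for NRF2 targets (0.30) and cell cycle (0.15) with the filter at 20 CPM, for erythroid markers without F2, F4, F8 and F10 (-0.65), and for hepatocyte markers with F1 and F7 kept (3.13), without F2, F4, F8 and F10 (-0.35) and with Alb as a covariate (-0.010). The filter tests fewer probes and the others change samples or the fit, and the cause was not tested further. None of the 45 called named genes reversed, and 29 kept their call without any 1 library.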
